A study of Homo sapiens with 24 samples.

Results

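Panobinostat was added to CX-5461 in JJN3, an established human multiple myeloma line, and the cells that received both drugs were set against cells that received CX-5461 alone. The comparison holds 6 of the 24 libraries of the series, chosen by their labels: 3 libraries of JJN3 cells given CX-5461 at 500 nM together with panobinostat at 50 nM, and 3 of JJN3 cells given CX-5461 at 500 nM, each for 24 h. All 6 libraries therefore carry CX-5461, and panobinostat is the only labelled difference between the groups. JJN3 is labelled as a wild-type line in its genotype field and as p53-null in its p53 field. MM1.S, the series' other line, is labelled p53 wild type. The same drugs were also given to JJN3 without CX-5461 (50 nM panobinostat or vehicle) and to MM1.S, and these libraries serve here as points of reference. In 2 of the 3 libraries of CX-5461 alone the treatment field of the labels spells the drug with another last digit, while the titles of all 3 name CX-5461, and the titles were followed.

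Histone deacetylases (HDACs) remove acetyl groups from histones and other proteins, and panobinostat blocks most enzymes of this family. Blocking them raises histone acetylation and changes the transcription of many genes in both directions, among them genes that a cell type normally keeps silent. CX-5461 stops RNA polymerase I from transcribing the ribosomal RNA genes and binds DNA structures called G-quadruplexes. Myeloma cells are malignant plasma cells: they depend on the transcription factor IRF4, secrete large amounts of protein, and carry surface proteins such as BCMA that are targets of therapy.

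Expression was read by sequencing near the 3′ end of polyA-selected RNA, and the values below are CPM, counts scaled to library size after TMM scaling. The 6 libraries held 4957977 to 6915633 counted reads, and with 3 counts as the limit that a count of 0 allows, a gene without reads in 1 library could stand at up to 0.605 CPM. The first principal component of the 6 libraries held 72.0% of the variance and placed the 3 libraries with both drugs between 27.8 and 44.9 and the 3 with CX-5461 alone between -41.6 and -35.6. The second, with 10.0%, placed both replicates numbered 2 (19.2 with both drugs, 20.8 with CX-5461) apart from the other 4 libraries, which lay between -13.2 and -7.0. Mitochondrially encoded mRNA took 1.65% to 2.00% of the reads with both drugs and 1.02% to 1.60% with CX-5461, and the nuclear RNA MALAT1 took 0.827% to 1.43% with both drugs and 0.331% to 0.675% with CX-5461. Plasma cell markers were present in both groups (JCHAIN had 39028 counts with both drugs and 49988 with CX-5461), although CD38, a common myeloma marker, had 3 and 2 counts. Of the markers of other cells, 4 of 10 T cell genes (CD3D, CD3G, CD4 and LCK), 4 of 10 monocyte genes (LYZ, FCGR3A, CD163 and MRC1), 4 of 9 natural killer cell genes, 2 of 10 B cell genes (FCER2 and EBF1) and 2 of 9 erythroid genes (ALAS2 among them) had 0 counts in all 6 libraries. The rest held reads, most of them few. The summed level of the T cell list was 14.7 to 19.4 CPM with both drugs and 18.4 to 25.5 CPM with CX-5461, and its highest member ZAP70 had 137 counts with both drugs and 254 with CX-5461. The monocyte list summed to 3.34 to 8.16 CPM with both drugs and 6.27 to 9.81 CPM with CX-5461, with S100A8 highest at 65 and 104 counts, and the B cell list to 3.34 to 3.81 CPM with both drugs and 1.14 to 2.25 CPM with CX-5461, with BANK1 highest at 37 and 19 counts. The natural killer cell list summed to 5.10 to 9.99 CPM with both drugs and 4.99 to 7.08 CPM with CX-5461. Among erythroid genes the beta globin HBB stood far above the others, with 11381 counts with both drugs and 10929 with CX-5461. The part of other cells in the results was not tested.

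Adding panobinostat to CX-5461 changed many genes in both directions. Of 11411 genes tested with edgeR, 2141 were higher and 1781 lower with both drugs than with CX-5461 at an adjusted p under 0.05, that is 34.4% of genes tested, 18.8% higher and 15.6% lower. By at least 2-fold, 1190 genes rose and 440 fell. Another fit took the replicate number as a block, which treats same-numbered libraries as pairs, as described under the processing. It called 5593 genes (49% of genes, with 25.8% higher and 23.2% lower), including each of the 3922 called without the block. The counts of list members below are to be read beside these shares over all genes. Without the libraries numbered 2 in every JJN3 group the counts were 2079 higher and 1750 lower. In 3772 of the 3922 called genes the 3 libraries with both drugs did not overlap the 3 with CX-5461, against 5184 of all 11411 genes (45.4%). The labels do not say whether replicates came from separate cultures, so the p-values reflect the spread among these libraries and that spread may be technical.

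The largest rises included genes that were low with CX-5461 alone, several of them neuronal. TUBB3, the neuronal beta tubulin, had 103, 30.0 and 65.1 CPM with both drugs, against 0.861, 0.380 and 0.483 CPM with CX-5461 (log2 fold change 6.79 ± 0.73, SE, edgeR adjusted p = 3.9e-05). HPCAL4, a calcium sensor of neurons, had 36.4, 19.2 and 32.0 CPM with both drugs, against 0.344, 0.380 and 0.322 CPM with CX-5461 (6.31 ± 0.55, edgeR adjusted p = 8.45e-07). In both genes the replicate numbered 2 with both drugs was the lowest of its group and still above every library with CX-5461. APLP1, a relative of the amyloid precursor protein, had 48.8, 36.3 and 42.1 CPM with both drugs, against 1.21, 0.95 and 0.644 CPM with CX-5461 (5.49 ± 0.42, edgeR adjusted p = 1.62e-07). MT2A, a zinc-binding metallothionein, had 61.6, 35.9 and 43.5 CPM with both drugs, against 1.55, 1.33 and 1.61 CPM with CX-5461 (4.95 ± 0.36, edgeR adjusted p = 1.35e-07). FSCN1, which bundles actin filaments, had 217, 109 and 160 CPM with both drugs, against 6.54, 5.32 and 5.47 CPM with CX-5461 (4.81 ± 0.32, edgeR adjusted p = 1.62e-07). The Wnt antagonist DACT3 (5.29 ± 0.41) and the neuronal membrane protein SEZ6L2 (5.15 ± 0.45) were also among the largest rises in genes of at least moderate expression whose groups did not overlap. Across the 1190 genes that rose at least 2-fold, the median log2 ratio of the same-numbered libraries was 1.52, 1.36 and 1.49 in pairs 1, 2 and 3.

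The largest falls were smaller than the largest rises. F2RL3, the thrombin receptor PAR4, had 1.55, 2.55 and 1.73 CPM with both drugs, against 18.2, 16.7 and 22.4 CPM with CX-5461 (log2 fold change -3.31 ± 0.26, edgeR adjusted p = 1.44e-07). DOK3, an adaptor that dampens B cell receptor signalling, had 3.94, 6.08 and 6.75 CPM with both drugs, against 31.3, 32.3 and 29.8 CPM with CX-5461 (-2.49 ± 0.21, edgeR adjusted p = 3.05e-07). CALN1, a calcium-binding protein, had 19.8, 19.0 and 16.8 CPM with both drugs, against 116, 84.6 and 106 CPM with CX-5461 (-2.46 ± 0.19, edgeR adjusted p = 1.35e-07). No library of one group reached the range of the other in any of the 3. AGMAT, a mitochondrial enzyme of the arginase family (-3.01 ± 0.35), GIPC3 (-2.79 ± 0.22), the adaptor STAP2 (-2.78 ± 0.30), RCN1, a calcium-binding protein of the endoplasmic reticulum (-2.65 ± 0.25), and KIAA1549L (-2.57 ± 0.36) complete the 8 largest falls. PSMB10, a catalytic subunit of the immunoproteasome that replaces a standard subunit in immune cells, had 47.7, 68.7 and 64.4 CPM with both drugs, against 307, 286 and 312 CPM with CX-5461 (-2.33 ± 0.16, edgeR adjusted p = 9.8e-08). Its level with both drugs was 20.0% of that with CX-5461.

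**Figure D1:**
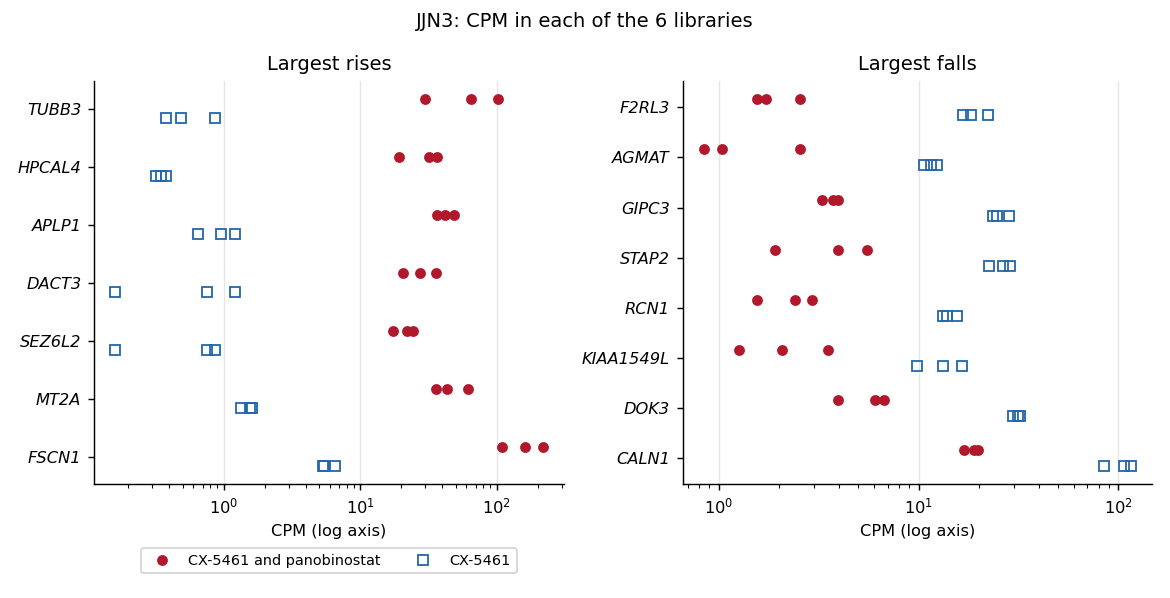
CPM (log axis) of 7 of the 8 largest rises (left) and the 8 largest falls (right) in JJN3, by the rule for named genes; red circles are the 3 libraries with CX-5461 and panobinostat, blue squares the 3 with CX-5461. The groups do not overlap in any of the 15 genes, and TUBB3 shows the widest spread among the libraries with both drugs.

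The promoters of 4 of these genes are shown because their windows hold the motifs named here: GC boxes in APLP1, a neuronal gene that rose, metal response element cores in MT2A, an interferon response core in PSMB10 and an E-box in F2RL3, all from RefSeq on GRCh38.p14. Each window runs from 250 bases before to 50 after a transcription start, 5′ to 3′ on the strand of the gene, with the matches to its motif in capitals. The windows are chr19:35868324-35868623 on the plus strand for APLP1, chr16:56608334-56608633 on the plus strand for MT2A, chr16:67936801-67937100 on the minus strand for PSMB10 and chr19:16888749-16889048 on the plus strand for F2RL3.
APLP1: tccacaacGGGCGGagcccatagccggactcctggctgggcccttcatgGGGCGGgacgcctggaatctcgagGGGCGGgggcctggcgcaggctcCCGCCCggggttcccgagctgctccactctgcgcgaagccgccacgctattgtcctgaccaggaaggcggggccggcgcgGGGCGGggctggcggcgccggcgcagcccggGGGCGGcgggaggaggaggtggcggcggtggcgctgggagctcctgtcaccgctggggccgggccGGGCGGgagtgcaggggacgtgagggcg
MT2A: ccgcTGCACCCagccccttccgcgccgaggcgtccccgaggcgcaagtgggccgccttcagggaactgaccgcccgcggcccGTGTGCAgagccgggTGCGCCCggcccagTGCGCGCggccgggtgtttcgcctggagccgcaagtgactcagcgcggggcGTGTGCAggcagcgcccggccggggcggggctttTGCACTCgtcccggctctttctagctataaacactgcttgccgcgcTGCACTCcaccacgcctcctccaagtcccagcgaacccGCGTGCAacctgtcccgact
PSMB10: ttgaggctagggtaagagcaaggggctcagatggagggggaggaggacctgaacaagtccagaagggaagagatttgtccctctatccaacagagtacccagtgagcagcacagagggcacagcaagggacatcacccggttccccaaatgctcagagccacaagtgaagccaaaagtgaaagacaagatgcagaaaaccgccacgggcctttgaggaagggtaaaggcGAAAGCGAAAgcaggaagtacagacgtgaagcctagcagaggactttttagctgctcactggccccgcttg
F2RL3: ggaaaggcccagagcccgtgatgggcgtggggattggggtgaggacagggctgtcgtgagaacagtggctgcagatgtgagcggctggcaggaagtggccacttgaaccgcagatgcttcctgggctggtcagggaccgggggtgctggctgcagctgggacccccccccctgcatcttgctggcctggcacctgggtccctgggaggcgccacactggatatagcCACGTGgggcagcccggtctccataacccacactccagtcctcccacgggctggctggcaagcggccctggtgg
The APLP1 window holds 7 matches to the GC box (GGGCGG, the site of SP1-like factors) and is 77.7% G and C. The MT2A window holds 8 matches to the metal response element core (TGCNCNC, bound by MTF1), the PSMB10 window 1 match to the interferon-stimulated response core (GAAANNGAAA) and the F2RL3 window 1 E-box (CACGTG, bound by MYC and its relatives). Motifs were searched on both strands, the GC box and the metal response core can overlap, and the motifs and genes were chosen with the values known. A match is a description of letters and not a bound site.

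Over whole gene groups the motifs were spread more evenly than these examples. Of the genes tested, 9264 had a window, and the GC box was in the windows of 80.2% of genes that rose, 77.9% of those that fell and 77.5% of all tested (48.3% of the 27305 genes with a window). The E-box was in 10.9% of genes that rose, 16.4% of those that fell and 12.9% of all tested (8.77% of all genes). The CCAAT box (CCAAT), bound by the factor NF-Y, was in 47.5% of genes that rose, 39.5% of those that fell and 43.7% of all tested (39.7% of all genes). The metal response core was in 70.9% of genes that rose, 71.4% of those that fell and 70.2% of all tested (59.4% of all genes), and the interferon response core in 2.98%, 4.32% and 3.69% in the same order (4.38% of all genes). Among the 8 largest rises 5 genes had a window, of which 5 held a GC box and 0 an E-box, and among the 8 largest falls 6 had one, of which 1 held a GC box and 2 an E-box.

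Most tested neuronal genes and most tested genes that HDAC inhibitors often raise were higher with both drugs. Of 46 neuronal genes 17 had enough counts to be tested, and 14 of them rose and 0 fell, with a median log2 fold change of 3.18 against 0.01 over all genes (also 3.18 with 3 genes that had 0 counts in a group set at their bound). Members low with CX-5461 passed the count filter mainly where panobinostat raised them. The share therefore describes the genes that could be measured and not the list. SYT11, a synaptotagmin, had 85.4, 69.7 and 69.6 CPM with both drugs, against 9.99, 8.74 and 6.11 CPM with CX-5461 (log2 fold change 3.18 ± 0.22, edgeR adjusted p = 8.03e-08). KIF5C, a neuronal kinesin motor, had 214 counts over the libraries with both drugs and 0 over those with CX-5461, at least 71.2-fold higher against 3 counts over the group. Reads of TUBB3 can be shared with other tubulin genes, and how shared reads were counted is not given in the sources used here. Of 25 tested genes that HDAC inhibitors often raise in other cells, 15 rose and 1 fell, with a median log2 fold change of 1.45. Here too some members passed the count filter mainly where panobinostat raised them. TUBB3 and MT2A, both on this list, had 10 and 26 counts with CX-5461 and 1261 and 872 with both drugs. This share as well describes the genes that could be measured. GSN, the actin-severing protein gelsolin, had 17.9, 17.9 and 18 CPM with both drugs, against 1.03, 2.28 and 1.61 CPM with CX-5461 (3.44 ± 0.25, edgeR adjusted p = 1.29e-07). The member that fell was H2BC12, a core histone with near-identical copies (-1.26 ± 0.38, edgeR adjusted p = 0.0229).

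Of the metallothioneins 3 rose, and of the deacetylases 5. The list of metallothioneins, the zinc exporter SLC30A1 and the metal-responsive factor MTF1 holds 12 genes, of which 5 could be tested and 3 rose: MT2A, MT1X (3.69 ± 0.45, edgeR adjusted p = 1.06e-05) and MT1G. Over the 3 libraries with CX-5461 they had 26, 13 and 3 counts, so these members passed the count filter mainly where panobinostat raised them, and the share describes the genes that could be measured and not the list. MT1G had 128 counts with both drugs and 3 with CX-5461, a ratio of 42.6 with a 95% counting interval of 14.2 to 209, and near-identical copies make the split between metallothioneins uncertain. Of 17 histone genes 3 rose and 2 fell, shares of 17.6% and 11.8% that lie below the 18.8% and 15.6% over all genes, and with the block 6 rose and 4 fell. H3-3B, the replacement histone H3.3, had 1288, 1126 and 1118 CPM with both drugs, against 703, 798 and 674 CPM with CX-5461 (0.70 ± 0.12, edgeR adjusted p = 0.000238). Of the 11 HDAC genes 5 rose and 1 fell. HDAC11 had 9.71, 9.22 and 9.18 CPM with both drugs, against 1.55, 1.71 and 2.25 CPM with CX-5461 (2.33 ± 0.34, edgeR adjusted p = 6.4e-05), HDAC9 changed by 1.36 ± 0.17 and HDAC5 by 0.71 ± 0.16 on the log2 scale. HDAC7, a class IIa deacetylase prominent in B cells, was the exception, with 166, 256 and 193 CPM with both drugs, against 502, 504 and 564 CPM with CX-5461 (-1.35 ± 0.15, edgeR adjusted p = 4.47e-06). Fetal globin genes are another known target of HDAC inhibitors in red cell precursors. HBG2, a gamma globin, had 42.6, 21 and 76.9 CPM with both drugs, against 6.71, 8.36 and 11.6 CPM with CX-5461 (2.39 ± 0.51, edgeR adjusted p = 0.00408), whereas the adult beta globin HBB had 513, 521 and 879 CPM with both drugs, against 673, 416 and 777 CPM with CX-5461 (0.04 ± 0.31, edgeR adjusted p = 0.948). HBG1, a near-identical copy of HBG2, also rose (0.99 ± 0.28, edgeR adjusted p = 0.0107), and the split between the copies is uncertain. The rise was not confined to fetal globins. The adult alpha globin HBA2 had 165 counts with both drugs and 2 with CX-5461. That is a ratio of 82.3 with a 95% counting interval of 22.4 to 685. With so few counts there, HBA2 could pass the count filter only through libraries other than those with CX-5461 alone. HBB was named after its values were seen. Of 4 erythroid markers tested 3 rose, and the summed level of the 9 markers was 570 to 999 CPM with both drugs and 434 to 807 CPM with CX-5461. The part of erythroid RNA in the globin values was not tested.

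Of the genes of plasma cell identity more fell than rose. Of 24 tested genes of plasma cell identity 11 fell and 5 rose, a median log2 fold change of -0.53, where 15.6% of all genes fell and 18.8% rose. In bulk RNA, fewer plasma-cell-like cells and less of their RNA per cell cannot be told apart. XBP1, the transcription factor of the secretory programme, had 277, 295 and 291 CPM with both drugs, against 743, 756 and 735 CPM with CX-5461 (-1.37 ± 0.10, edgeR adjusted p = 1.35e-07). TNFRSF17, which encodes the surface receptor BCMA, had 24.6, 24.3 and 27.7 CPM with both drugs, against 142, 91.2 and 119 CPM with CX-5461 (-2.20 ± 0.19, edgeR adjusted p = 4.01e-07). TNFRSF13B, which encodes the related receptor TACI, had 10.5, 7.85 and 12.1 CPM with both drugs, against 35.1, 29.1 and 40.9 CPM with CX-5461 (-1.78 ± 0.19, edgeR adjusted p = 3.37e-06). All libraries with both drugs lay below all libraries with CX-5461 in these 3 genes, and XBP1 varied least within its groups. IRF4, on which myeloma cells depend, had 85.2, 73.2 and 104 CPM with both drugs, against 225, 184 and 240 CPM with CX-5461 (-1.31 ± 0.16, edgeR adjusted p = 9.47e-06). MZB1, a chaperone of antibody assembly, had 69.2, 86.3 and 65.4 CPM with both drugs, against 170, 168 and 190 CPM with CX-5461 (-1.26 ± 0.15, edgeR adjusted p = 7.68e-06). SDC1, the surface proteoglycan CD138, had 44.4, 57.3 and 50.4 CPM with both drugs, against 86.6, 74.5 and 94.8 CPM with CX-5461 (-0.75 ± 0.13, edgeR adjusted p = 0.000355).

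The 5 members that rose were PRDM1 and CAV1 and, named after their values were seen, CREB3L2, MEF2C and ZBP1. PRDM1, the repressor BLIMP1 that ends the B cell programme, had 72.3, 59.1 and 62.5 CPM with both drugs, against 40.5, 43.5 and 56.6 CPM with CX-5461 (0.46 ± 0.15, edgeR adjusted p = 0.0218). Its groups lay close, and without the libraries numbered 2 its adjusted p was 0.0559. Without those libraries 1 of the 24 genes rose and 12 fell. CAV1, a membrane scaffold protein, had 7.31, 5.69 and 7.10 CPM with both drugs, against 2.24, 2.47 and 2.41 CPM with CX-5461 (1.5 ± 0.39, edgeR adjusted p = 0.00625). The summed level of the 10 plasma cell markers was 2524 to 3149 CPM with both drugs and 3834 to 5129 CPM with CX-5461, and 6 of the 9 tested markers fell and 1 rose.

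**Figure D2:**
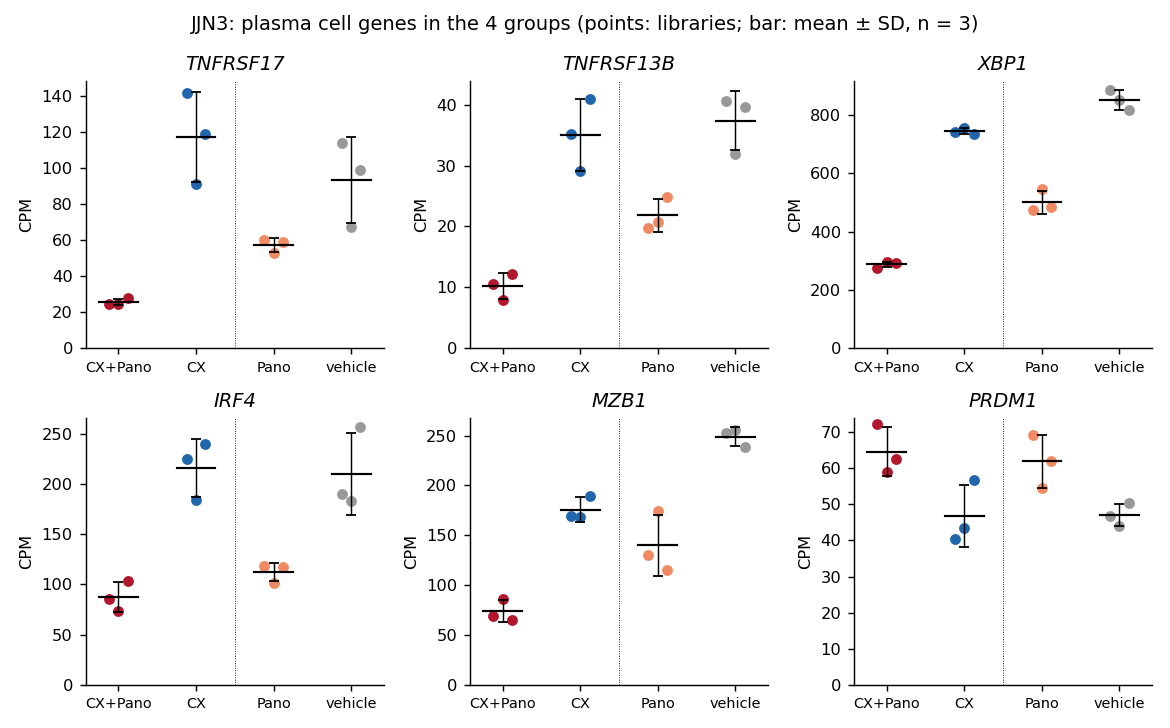
CPM of 6 plasma cell genes in the 12 JJN3 libraries: CX-5461 and panobinostat, CX-5461, panobinostat, and vehicle; points are libraries and bars the mean ± SD (n = 3). TNFRSF17 is lowest with both drugs (24.3 to 27.7 CPM), and PRDM1 is the only one of the 6 with a higher mean with panobinostat than without it in both pairs of groups.

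Surface antigens and genes of the MAF list fell more often than they rose. Of 20 tested myeloma surface antigens 10 fell and 2 rose (10 and 4 with the block), with a median log2 fold change of -0.50. ICAM1, an adhesion receptor, had 7.45, 7.06 and 4.85 CPM with both drugs, against 16.7, 26.0 and 20.6 CPM with CX-5461 (-1.7 ± 0.25, edgeR adjusted p = 6.01e-05). CD40, the receptor of helper T cell signals on B cells, went the other way, with 173 counts with both drugs and 0 with CX-5461, at least 57.5-fold higher against 3 counts over the group. NCAM1, an adhesion protein of neurons and myeloma cells, had 90 counts with both drugs and 1 with CX-5461, a ratio of 89.8 with a 95% counting interval of 15.7 to 3585. CD40 and NCAM1 could pass the count filter only through libraries other than those with CX-5461 alone. The share of antigens that rose therefore describes the genes that could be measured and not the list. MAF, a transcription factor that a translocation activates in some myelomas, had 177, 288 and 222 CPM with both drugs, against 290, 411 and 255 CPM with CX-5461 (-0.48 ± 0.24, edgeR adjusted p = 0.141, and 9.39e-05 with the replicate block). The MAF list counts MAF itself and its relatives MAFF and MAFG beside MAF targets. Of its 11 tested genes 5 fell and 1 rose (6 and 2 with the block), and MAF was among the 6. CCND2, a cyclin of the G1 phase, had 225, 324 and 264 CPM with both drugs, against 488, 601 and 665 CPM with CX-5461 (-1.11 ± 0.20, edgeR adjusted p = 0.000429), and ITGB5, an integrin subunit, had 124, 178 and 163 CPM with both drugs, against 459, 430 and 387 CPM with CX-5461 (-1.46 ± 0.13, edgeR adjusted p = 6.84e-07). ITGB7, another MAF target and a myeloma adhesion integrin, had 474, 467 and 667 CPM with both drugs, against 374, 417 and 544 CPM with CX-5461 (0.27 ± 0.18, edgeR adjusted p = 0.281, and 0.00458 with the block). The MAF target that rose was NOTCH2 (0.56 ± 0.15, edgeR adjusted p = 0.00946).

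Many genes of ribosome biogenesis fell, with CX-5461 present in both groups. The direct product of RNA polymerase I carries no polyA tail and was not measured. Of 70 tested ribosome biogenesis genes 34 fell and 0 rose, with a median log2 fold change of -0.51. NCL, the nucleolar protein nucleolin, had 218, 243 and 230 CPM with both drugs, against 494, 516 and 533 CPM with CX-5461 (-1.16 ± 0.10, edgeR adjusted p = 6.41e-07). MRTO4, an assembly factor of the large ribosomal subunit (-1.02 ± 0.15), and NAT10, an RNA acetyltransferase (-0.79 ± 0.12), also fell. Of 19 tested genes of the RNA polymerase I machinery 5 fell and 1 rose (7 and 3 with the block). UBTF, the factor that holds ribosomal DNA open, had 45.2, 47.9 and 60.1 CPM with both drugs, against 139, 127 and 134 CPM with CX-5461 (-1.39 ± 0.15, edgeR adjusted p = 3.37e-06), and POLR1A, the largest subunit of the polymerase, had 4.36, 1.96 and 3.81 CPM with both drugs, against 6.03, 7.6 and 5.47 CPM with CX-5461 (-0.88 ± 0.30, edgeR adjusted p = 0.032, and 0.231 without the libraries numbered 2). POLR2L, a small subunit that all the nuclear polymerases share, was the member that rose without the block (1.03 ± 0.20, edgeR adjusted p = 0.000801). Of 75 tested ribosomal protein genes 2 fell and 0 rose, RPL35 and RPSA, and with the block 21 fell and 3 rose. Of 17 snoRNA host genes 3 fell and 1 rose, and with the block 9 fell and 1 rose.

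MYC fell, and of its listed targets more fell than rose. MYC had 51.2, 54.2 and 69.1 CPM with both drugs, against 80.4, 128 and 85.4 CPM with CX-5461 (-0.75 ± 0.25, edgeR adjusted p = 0.0294), and its groups did not overlap. Of 39 tested genes of the MYC list, which counts MYC itself beside its targets, 21 fell and 3 rose, with a median log2 fold change of -0.65. NCL belongs to this list as well as to ribosome biogenesis. CAD, which starts pyrimidine synthesis, had 8.86, 9.62 and 11.9 CPM with both drugs, against 22.7, 31.4 and 32.8 CPM with CX-5461 (-1.52 ± 0.20, edgeR adjusted p = 2.04e-05), while the glycolytic enzyme gene PKM rose (0.62 ± 0.16, edgeR adjusted p = 0.00541).

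Some cell cycle genes fell and a few rose. Of 50 tested G1/S and replication genes 14 fell and 1 rose (median -0.37), and with the block 26 fell and 2 rose. CDC25A, a phosphatase that activates cyclin-dependent kinases, had 39.2, 50.2 and 44.8 CPM with both drugs, against 93.7, 99.2 and 120 CPM with CX-5461 (-1.22 ± 0.16, edgeR adjusted p = 2.42e-05). Of 49 tested G2/M genes 15 fell and 4 rose (median -0.16), and with the block 20 fell and 7 rose. UBE2C, a ubiquitin-conjugating enzyme of mitotic exit (-0.93 ± 0.13), and FOXM1, a transcription factor of mitosis (-0.92 ± 0.16), fell, whereas PTTG1, securin, rose (0.75 ± 0.12, edgeR adjusted p = 0.000121). TOP2A, a topoisomerase of dividing cells, had 1426, 1362 and 1193 CPM with both drugs, against 1479, 1318 and 1614 CPM with CX-5461, and the groups overlapped (-0.15 ± 0.11, edgeR adjusted p = 0.344). Among 7 tested inhibitors of cyclin-dependent kinases 4 rose and 2 fell. CDKN1A, the inhibitor p21, had 121, 105 and 92.8 CPM with both drugs, against 30.5, 48.5 and 29.0 CPM with CX-5461 (1.57 ± 0.19, edgeR adjusted p = 8.65e-06). CDKN2B, the inhibitor p15, rose by a similar amount (1.63 ± 0.22, edgeR adjusted p = 2.68e-05), and CDKN2A, which encodes p16 and ARF, had 26.4, 25.7 and 28.0 CPM with both drugs, against 63.2, 47.9 and 52.3 CPM with CX-5461 (-1.03 ± 0.14, edgeR adjusted p = 4.08e-05). Of 33 tested genes known as p53 targets 9 rose and 5 fell (median 0.05), among them FDXR, a mitochondrial reductase, which rose (1.53 ± 0.27, edgeR adjusted p = 0.000446). These are shares of 27.3% and 15.2%, where 18.8% of all genes rose and 15.6% fell. With the block 9 rose and 6 fell, 27.3% and 18.2%, where 25.8% of all genes rose and 23.2% fell. Of 49 DNA damage and repair genes 6 fell and 2 rose, shares of 12.2% and 4.08% that lie below the 15.6% and 18.8% over all genes. With the block 17 fell and 4 rose, 34.7% and 8.16% against 23.2% and 25.8% over all genes.

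Some apoptosis genes rose and others fell. FAS, a death receptor, had 5.20, 8.83 and 5.89 CPM with both drugs, against 27.4, 29.1 and 22.5 CPM with CX-5461 (-2.0 ± 0.23, edgeR adjusted p = 5.16e-06). BMF, a BH3-only protein that HDAC inhibitors are known to raise, had 74.5, 72.2 and 88.3 CPM with both drugs, against 47.3, 37.6 and 35.6 CPM with CX-5461 (0.96 ± 0.14, edgeR adjusted p = 5.89e-05). BID, which links death receptors to mitochondria, had 19.7, 24.5 and 18.7 CPM with both drugs, against 49.9, 50.9 and 53.9 CPM with CX-5461 (-1.30 ± 0.15, edgeR adjusted p = 5.0e-06). These 3 genes showed no overlap between groups, and they moved in different directions. HRK, a BH3-only protein of neurons, had 76 counts with both drugs and 2 with CX-5461, a ratio of 37.9 with a 95% counting interval of 10.1 to 319. It could pass the count filter only through libraries other than those with CX-5461 alone. Of 10 tested pro-apoptotic BCL2 family genes 2 rose and 1 fell, and of 10 anti-apoptotic BCL2 and IAP genes 3 rose and 2 fell. In lists of 10 these counts lie near the shares over all genes, 18.8% higher and 15.6% lower. BCL2 had 234, 193 and 243 CPM with both drugs, against 182, 162 and 158 CPM with CX-5461 (0.42 ± 0.12, edgeR adjusted p = 0.0141), and BIRC3, an inhibitor of apoptosis and a target of NF-kB, had 1220, 987 and 1394 CPM with both drugs, against 754, 731 and 778 CPM with CX-5461 (0.67 ± 0.14, edgeR adjusted p = 0.00154). MCL1, the survival factor most myelomas need, had 1132, 1165 and 1145 CPM with both drugs, against 917, 1115 and 946 CPM with CX-5461 (0.21 ± 0.13, edgeR adjusted p = 0.217, and 0.0173 with the block). The BH3-only genes BCL2L11 (0.21 ± 0.15), BBC3 (-0.18 ± 0.20) and PMAIP1 (-0.28 ± 0.18) and the anti-apoptotic BCL2L1 (-0.14 ± 0.36) had overlapping groups and did not pass the test, with edgeR adjusted p between 0.236 for PMAIP1 and 0.806 for BCL2L1.

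Protein handling and stress genes fell more often than they rose. Of 38 tested genes of the integrated stress response 14 fell and 1 rose (19 and 2 with the block, median -0.29), with TRIB3, a pseudokinase of that response, at 16.7, 17.1 and 18.2 CPM with both drugs, against 28.2, 29.6 and 32.5 CPM with CX-5461 (-0.80 ± 0.15, edgeR adjusted p = 0.000472). Of 53 endoplasmic reticulum and secretion genes 12 fell and 2 rose, and with the block 22 fell and 7 rose. ERO1A, an oxidase of protein folding, fell (-0.97 ± 0.13, edgeR adjusted p = 2.78e-05), and SEC11C, a signal peptidase subunit, rose (0.92 ± 0.13, edgeR adjusted p = 5.74e-05). Of 29 proteasome genes 8 fell and 1 rose (12 and 3 with the block). PSMB5, the subunit that bortezomib binds, had 77.6, 66.5 and 67.3 CPM with both drugs, against 141, 130 and 146 CPM with CX-5461 (-0.98 ± 0.12, edgeR adjusted p = 8.02e-06). Of 20 heat shock chaperones 7 fell and 2 rose, and HSPB1, a small heat shock protein, was the clearest rise, with 115, 92.6 and 107 CPM with both drugs, against 42.7, 36.9 and 43.1 CPM with CX-5461 (1.36 ± 0.16, edgeR adjusted p = 7.25e-06). Lysosome and autophagy genes went the other way, with 15 of 40 higher and 2 lower (18 and 5 with the block, median 0.21), among them GABARAPL2, a protein of autophagosome membranes (0.77 ± 0.11, edgeR adjusted p = 5.38e-05).

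**Figure D3:**
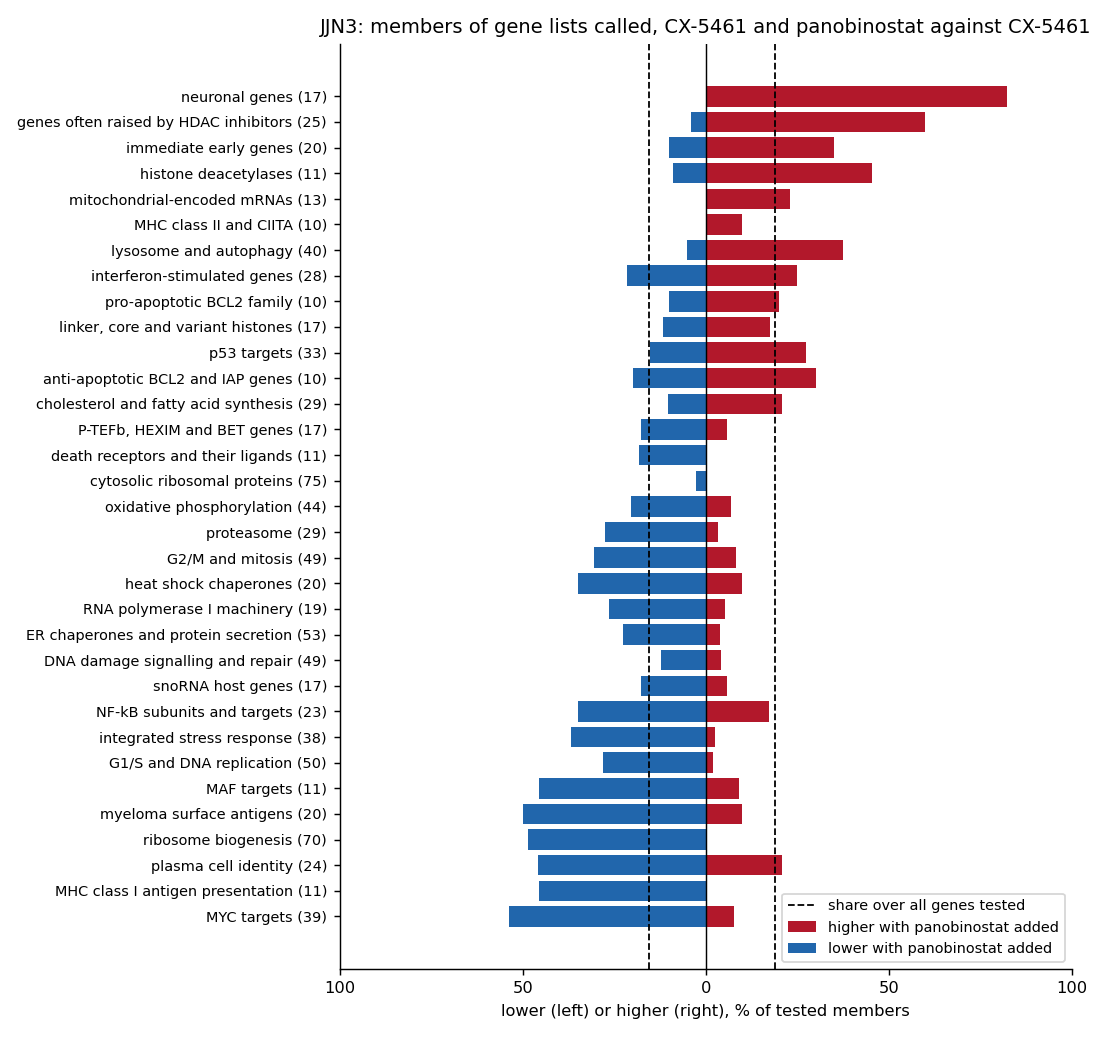
Percent of the tested members of each gene list that were lower (blue, left) or higher (red, right) in JJN3 with CX-5461 and panobinostat than with CX-5461, for lists with at least 10 tested members (their number in brackets); dashed lines mark the percent over all genes, 15.6% lower and 18.8% higher. Neuronal genes stand at the top with 14 of 17 higher and MYC targets, a list that includes MYC, at the bottom with 21 of 39 lower.

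Immune genes moved in both directions, where 18.8% of all genes rose and 15.6% fell (25.8% and 23.2% with the block). The interferon-stimulated genes lay near these shares, with 25% higher and 21.4% lower without the block. Of 23 tested NF-kB subunits and targets 8 fell and 4 rose, and NFKB1, the p105 subunit, had 16.7, 18.4 and 13.3 CPM with both drugs, against 57.2, 49.6 and 45.9 CPM with CX-5461 (-1.65 ± 0.17, edgeR adjusted p = 1.77e-06). Of 28 interferon-stimulated genes 7 rose and 6 fell (8 and 10 with the block), with IFI6, an interferon-induced mitochondrial protein, at 73.6, 33.2 and 54.7 CPM with both drugs, against 11.7, 10.5 and 12.9 CPM with CX-5461 (2.21 ± 0.29, edgeR adjusted p = 4.71e-05). Of 11 MHC class I presentation genes 5 fell and 0 rose, PSMB10 among them. Of 10 MHC class II genes 1 rose, HLA-DRB1, with 1794, 1549 and 1910 CPM with both drugs, against 1368, 1229 and 1200 CPM with CX-5461 (0.47 ± 0.12, edgeR adjusted p = 0.00725), and 5 rose with the block. HLA-DRA, its partner chain, had 9 counts in each group and was not tested. Of 6 tested ligands of natural killer cell receptors 2 rose, NECTIN2 (3.00 ± 0.41) and TNFSF9 (1.14 ± 0.15), and CLEC2B fell (-0.88 ± 0.20), and with the block 2 rose and 3 fell. Of 11 death receptors and ligands 2 fell and 0 rose, and with the block 4 fell and 1 rose.

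Of 20 immediate early genes 7 rose and 2 fell, and with the block 13 rose and 2 fell. IER2, a growth-response gene, had 628, 530 and 630 CPM with both drugs, against 322, 313 and 340 CPM with CX-5461 (0.87 ± 0.13, edgeR adjusted p = 7.3e-05). HEXIM1, an inhibitor of the elongation factor P-TEFb, had 150, 168 and 157 CPM with both drugs, against 116, 150 and 142 CPM with CX-5461 (0.22 ± 0.16, edgeR adjusted p = 0.322, and 0.0377 with the block), and of 17 P-TEFb, HEXIM and BET genes 3 fell and 1 rose (4 and 2 with the block). Of 29 cholesterol and fatty acid genes 6 rose and 3 fell (9 and 5 with the block), with SREBF1, a transcription factor of these pathways, higher (1.11 ± 0.20, edgeR adjusted p = 0.000429). Of 44 nuclear genes of oxidative phosphorylation 9 fell and 3 rose, and with the block 17 fell and 5 rose. Of 13 mitochondrially encoded mRNAs 3 rose and 0 fell, and 10 rose with the block. MALAT1 had 8040, 12328 and 13365 CPM with both drugs, against 3362, 6811 and 5859 CPM with CX-5461 (1.07 ± 0.35, edgeR adjusted p = 0.0327, and 0.116 without the libraries numbered 2). Of 5 DNA topoisomerase genes 2 fell, TOP1MT and TOP3A, and of 5 nuclear noncoding RNAs 1 rose and 1 fell (3 and 1 with the block). The part of RNA quality in these mitochondrial and nuclear RNAs was not tested.

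Panobinostat changed many of the same genes in JJN3 without CX-5461. Against vehicle it raised 1716 genes and lowered 1248 of the same 11411, 26% of genes, with 15% higher and 10.9% lower. The libraries of that comparison are not among the 6 above, though all 12 share a fit. Of the 2141 genes raised on top of CX-5461, 1399 (65.3%) were also raised against vehicle, which is 81.5% of the 1716 raised against vehicle. Of the 1781 genes lowered, 979 (55.0%) were also lowered against vehicle, 78.4% of its 1248, and 1 gene in each direction was called the opposite way. Over the 11411 genes the log2 fold changes correlated with Pearson r 0.896 and Spearman rho 0.831, and their SD was 1.02 with CX-5461 and 0.901 without it. Genes are not independent replicates, so this is a description.

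The difference between the 2 effects of panobinostat was small against the spread of the libraries. Without the replicate block 0 genes differed at an edgeR adjusted p under 0.05 (0% of genes), with 564 at an unadjusted p under 0.05, and limma-voom called 0 and DESeq2 19. With the block 105 genes differed, 0.92% of genes tested: 14 with a more positive change on top of CX-5461 (0.123%) and 91 with a more negative one (0.797%). Plasma cell genes were 6 of the 91: TNFRSF17, TNFRSF13B, XBP1, POU2AF1, CD79B and IKZF3, out of 24 tested, the last 3 named after their values were seen. TNFRSF17 had 24.6, 24.3 and 27.7 CPM with both drugs, against 142, 91.2 and 119 CPM with CX-5461, and 60.0, 52.5 and 58.6 CPM with panobinostat, against 114, 67.4 and 99.1 CPM with vehicle. Its log2 fold change was -2.20 ± 0.19 on top of CX-5461 and -0.71 ± 0.18 against vehicle, a difference of -1.5 ± 0.16 with the block (edgeR adjusted p = 4.43e-06, and 0.144 without the block). XBP1 fell in both settings, to 277 to 295 CPM with both drugs and to 473, 546 and 483 CPM with panobinostat, against 887, 852 and 819 CPM with vehicle, and the difference of its changes was -0.60 ± 0.11 (edgeR adjusted p = 0.00207 with the block, 0.355 without). TNFRSF13B differed by -1.0 ± 0.20 (edgeR adjusted p = 0.00747 with the block, 0.446 without). JUP, plakoglobin of cell junctions, had the largest positive difference among the genes taken by the rule, with 110, 70.1 and 108 CPM with both drugs, against 11.0, 12 and 11.4 CPM with CX-5461, and 61.7, 40.9 and 59.2 CPM with panobinostat, against 16.7, 16 and 13.8 CPM with vehicle (1.26 ± 0.21, edgeR adjusted p = 0.00146 with the block, 0.328 without). The largest negative one was that of CTLA4, an inhibitory receptor of T cells, with 3.66, 5.89 and 6.23 CPM with both drugs, against 10.5, 20.0 and 12.9 CPM with CX-5461, and 7.38, 18.2 and 13.5 CPM with panobinostat, against 8.77, 14.9 and 11.3 CPM with vehicle (-1.57 ± 0.28, edgeR adjusted p = 0.00207 with the block, 0.677 without). The groups given panobinostat or vehicle alone overlapped for CTLA4, and the other 2 did not. CYB561, a membrane electron carrier, turned its sign, with a log2 fold change of 0.52 ± 0.13 on top of CX-5461 and -0.47 ± 0.13 against vehicle, a difference of 0.99 ± 0.16 (edgeR adjusted p = 0.00123 with the block, 0.144 without).

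**Figure D4:**
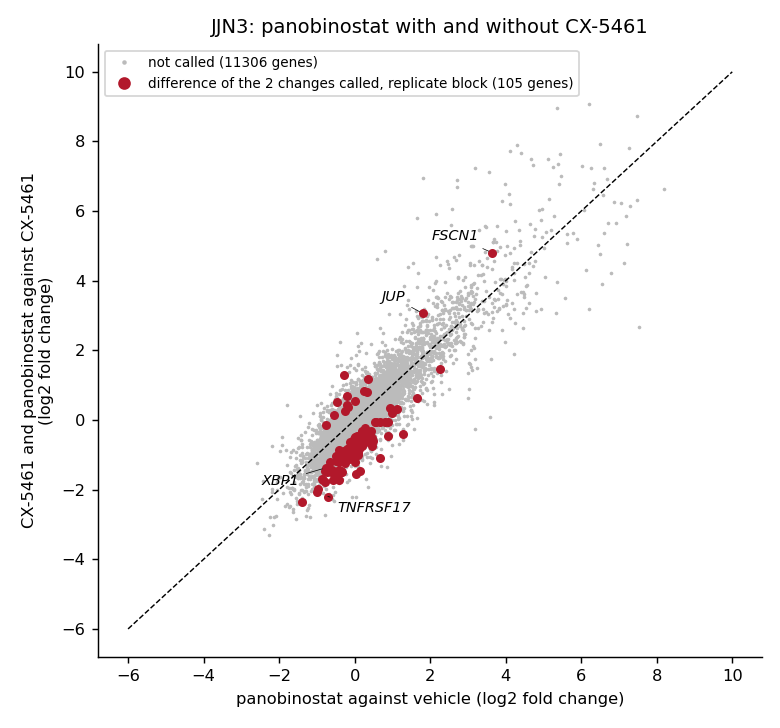
Log2 fold change of each of 11411 genes in JJN3 for CX-5461 and panobinostat against CX-5461 (vertical axis) and for panobinostat against vehicle (horizontal axis); red points are the 105 genes whose changes differed with the replicate block, and the dashed line marks equal changes. Most red points, 91 of 105, lie below the line, TNFRSF17 and XBP1 among them.

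More genes passed the same test in MM1.S, where the spread between libraries was also smaller (biological coefficient of variation 0.154 in JJN3 and 0.107 in MM1.S). In MM1.S, CX-5461 and panobinostat against CX-5461 raised 4320 of 12030 genes and lowered 4073, 69.8% in all, with 35.9% higher and 33.9% lower. In 1 fit of both lines the change differed between JJN3 and MM1.S for 4162 of 12872 genes, 32.3% (19.6% more positive in JJN3, 12.7% more negative). The split by direction depended on the scaling. It was 2526 more positive and 1636 more negative here, 2266 and 1855 with RLE scaling, and 2218 and 1907 without the 10 most abundant genes. Over the 10628 genes tested in both lines, 1463 rose in both, 75.4% of the rises in JJN3 and 40.4% of those in MM1.S, and 1374 fell in both, 81.8% of the falls in JJN3 and 37.0% of those in MM1.S. Another 151 genes rose in JJN3 and fell in MM1.S, and 73 fell in JJN3 and rose in MM1.S.

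CDKN1A was one of those with opposite changes. It averaged 106 ± 14.4 CPM with both drugs and 36.0 ± 10.8 CPM with CX-5461 in JJN3, and 138 ± 11.4 CPM with both drugs and 734 ± 47.6 CPM with CX-5461 in MM1.S (SD, n = 3 each), a difference of the log2 fold changes of 4.0 ± 0.23 (edgeR adjusted p = 8.49e-14). Of the genes known as p53 targets 9 rose and 5 fell of 33 in JJN3, and 3 rose and 29 fell of 39 in MM1.S, with 23 of 39 more positive and 2 more negative in JJN3. Of G2/M genes 15 of 49 fell in JJN3 and 45 of 49 in MM1.S, and 44 of 50 changes were more positive in JJN3 with 0 more negative. Of G1/S genes 14 of 50 fell in JJN3 and 46 of 50 in MM1.S, and 37 of 50 changes were more positive in JJN3. Of plasma cell genes 11 of 24 fell and 5 rose in JJN3, and 22 of 24 fell and 0 rose in MM1.S, and the medians were -0.53 in JJN3 and -2.08 in MM1.S. TNFRSF17 averaged 2.83 ± 1.08 CPM with both drugs and 311 ± 40.8 CPM with CX-5461 in MM1.S, a larger fall than in JJN3 by 4.57 ± 0.30 on the log2 scale (edgeR adjusted p = 1.7e-12). IRF4 was the exception among the named plasma cell genes, with a fall in JJN3 that exceeded that in MM1.S (-0.98 ± 0.20, edgeR adjusted p = 0.000282): it averaged 99.4 ± 10.3 CPM with both drugs and 124 ± 5.74 CPM with CX-5461 in MM1.S. Of ribosome biogenesis genes 34 of 70 fell in JJN3 (median -0.51) and 50 of 70 in MM1.S (median -0.65), and 14 of 70 changes differed between the lines, 8 more positive and 6 more negative in JJN3. PRDM1 averaged 30.4 ± 5.70 CPM with both drugs and 147 ± 8.96 CPM with CX-5461 in MM1.S, where it fell (-2.26 ± 0.26), a difference of 2.74 ± 0.28 (edgeR adjusted p = 2.51e-08).

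**Figure D5:**
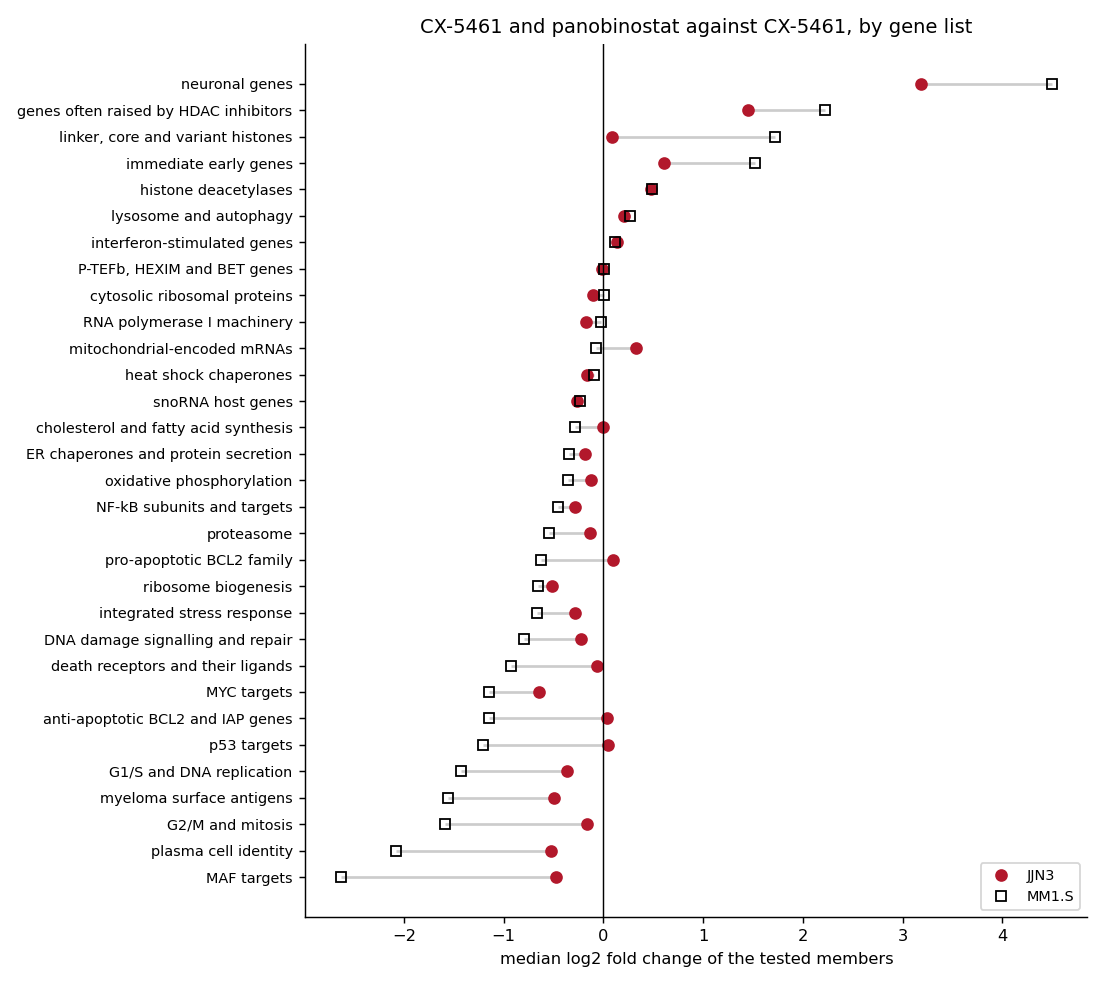
Median log2 fold change of the tested members of each gene list for CX-5461 and panobinostat against CX-5461, in JJN3 (red circles) and MM1.S (open squares). The lines lie far apart for plasma cell identity (-0.53 in JJN3, -2.08 in MM1.S) and G2/M genes (-0.16 and -1.59) and close together for ribosome biogenesis (-0.51 and -0.65).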

How the data were processed

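The authors deposited raw counts, whole numbers of reads per gene, in 1 table per cell line. The submitters' processing notes list featureCounts 2.0.1, HISAT2 2.2.1 and limma 3.50.0 as tools, and GRCh37 and hg19 as builds, without saying what each was used for. For the annotation, the strand setting and the treatment of shared reads nothing is given in the sources used here, so antisense partners cannot be told apart and near-identical copies are uncertain. Symbols were matched for 27745 of 28395 gene identifiers through a RefSeq table on GRCh38.p14.

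Counts of the 12 JJN3 libraries were scaled by TMM, filtered with filterByExpr and fitted as 4 group means (8 residual degrees of freedom) in edgeR 4.0.16 (R 4.3.3, glmQLFit and glmQLFTest, two-sided, Benjamini-Hochberg over 11411 genes). MM1.S was fitted alike (12030 genes), and the lines were compared in 1 fit of 24 libraries (12872 genes). Errors are standard errors unless named SD. Replicate numbers come from the titles. Deviations of same-numbered libraries from their group means correlated by 0.353, 0.311 and 0.241 between the 2 JJN3 groups. Between other numbers they correlated by at most -0.0767. The deviations of a group sum to 0, so these negative values follow on average from the positive ones and add no evidence of their own. The labels do not say that the numbers pair the libraries. A fit with the number as a block therefore stands beside the fit without it. Replicates differed by more than sampling noise (chi-square per degree of freedom of 8.35 to 12.4), and each library counts once. Reads carry no molecular identifiers, so limits and intervals cover counting error only.

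The comparison, the 48 lists and the rules were chosen with earlier results of these data known. Named genes are the 8 largest rises and 8 largest falls among called genes whose mean log2 CPM was 3 or more and whose groups did not overlap, up to 3 members of each list by smallest adjusted p with 1 of the opposite direction, a panel of 26 genes, and 5 genes in each direction for each test of a difference. A few genes are not reported here. Alternatives were RLE scaling, library size alone, other filters, limma-voom (limma 3.58.1), DESeq2 1.42.0, the 6 libraries alone, leaving out the 10 most abundant genes, and leaving out libraries.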

Additional observations from a re-analysis of the deposited data

Results flagged for a closer look

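The effect of adding panobinostat to CX-5461 differed between JJN3 and MM1.S for 4162 genes by the test of the difference in 1 edgeR fit. Among named genes, the difference of the log2 fold changes (JJN3 less MM1.S) was 7.31 for PHLDA3, 4.0 for CDKN1A and 1.03 for BBC3 and 0.98 for PMAIP1, all known p53 targets. The value of PHLDA3 rests on few reads in JJN3, 32 counts with both drugs and 7 with CX-5461. It did not pass the count filter of the fit of JJN3 alone. For plasma cell genes it was 4.57 for TNFRSF17, 3.97 for SLAMF7, 3.02 for SDC1, 2.74 for PRDM1, 2.40 for XBP1 and -0.98 for IRF4. For MAF it was 2.50, for its targets ITGB7 3.04 and for CCND2 1.58. For the BCL2 family it was 4.13 for BCL2L1, 2.09 for BCL2 and -0.60 for BCL2L11. It was 2.86 for MYC, 1.34 for TOP2A, 0.62 for UBTF and -1.15 for HEXIM1. For 10 further named genes a group held at most 3 counts, so their fitted differences depend on the prior count and are not printed.

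Within JJN3, the effect of panobinostat with CX-5461 differed from its effect without CX-5461 for 105 genes in the edgeR fit with the replicate block. The positive differences among named genes were 1.26 for JUP, 1.2 for FSCN1, 0.99 for CYB561, 0.90 for GOLPH3L and 0.80 for MAPK8IP3. The negative ones were -1.57 for CTLA4, -1.50 for TNFRSF17, -1.34 for LINC01521, -1.21 for ANK3, -1.15 for AMPD1 and -0.60 for XBP1. Without the block none of these 11 passed an edgeR adjusted p of 0.05.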

How the results depend on the processing

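Of the 3922 genes called between both drugs and CX-5461, counts under the other settings lay between 3706 and 5677 (5593 with the replicate block), and between 2878 and 3754 when 1 library was left out, all within 1.5-fold. The difference between panobinostat with and without CX-5461 depended on the setting: 0 genes in the edgeR fit, 105 with the replicate block, 116 with limma-voom and the block, 102 with DESeq2 and the block, 19 with DESeq2, 46 with no filter, and 0 to 1 with 1 library left out (1 without CX-5461 replicate 2). Panobinostat against vehicle gave 2964 genes, 4784 with the block, 4807 with limma-voom and the block, and 1957 to 2950 with 1 library left out (1957 without panobinostat replicate 1). The difference between lines gave 4162 genes, 5181 with the block, 3627 to 3998 with 1 library left out and 3331 without replicates numbered 2. Why counts moved was not tested. The fits of limma-voom and DESeq2 with the block, and those that left out a library with the block, were added after seeing the data. No called named gene changed sign under these settings. For both drugs against CX-5461, 25 named genes lost and 7 gained their call under at least 1 setting, and 62 of 96 counts of list members moved by over 1.5-fold. Depth limits genes near 0.605 CPM, and 3 libraries a group limit precision.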
